A study of Mus musculus with 6 samples.

Results

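The genes described here encode the T cell receptor signaling apparatus: the CD3 chains and coreceptor, the kinases and adaptors that act next to the receptor, the enzymes that restrain them, and the NFAT factors. They were chosen by name from knowledge of the pathway, with earlier results of these data known. Of the 22939 gene rows of the count table, 37 carried these names. All 37 passed the filter on low counts that left 13463 genes tested. Rows for the constant regions of the receptor's own alpha and beta chains (Trac, Trbc1 and Trbc2) were not analysed here, so the receptor is seen through its CD3 chains.

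RNA-seq was performed on mouse regulatory T (Treg) cells made in culture, as 3 control libraries (control-Treg) and 3 libraries from cells given sorafenib (Sora-Treg), a multikinase inhibitor used in hepatocellular carcinoma. Per the study's methods, naive CD4+ T cells from C57BL/6J-background mice carrying a GFP knock-in at Foxp3 were stimulated with plate-bound anti-CD3 and with anti-CD28 in the presence of TGF-β1, anti-IFN-γ and anti-IL4, and GFP+ cells were sorted. Both groups therefore received a stimulus through the receptor complex itself, and both were sorted for cells in which the Foxp3 reporter was on. The sorafenib concentration and the culture time of the sequenced cells, the age of the reporter mice, and whether the 3 libraries of a group came from separate mice or cultures are not given in the sources used here, so p-values measure the spread between these libraries, which may be technical.

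A T cell reads antigen through a receptor that has no enzyme of its own. The CD3 and zeta chains carry the tyrosine motifs that Lck phosphorylates and ZAP70 then binds, and ZAP70 phosphorylates the scaffolds LAT and SLP-76, on which phospholipase C-γ1 (Plcg1) and VAV1 assemble. Calcium then releases NFAT to the nucleus, while diacylglycerol activates RasGRP1 and protein kinase C-θ. In Treg cells the same receptor supplies the signal that induces Foxp3 together with TGF-β, and NFAT is a known partner of Foxp3 on DNA.

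The libraries held 30727686 to 37717324 counts each. The 37 genes took 0.897% to 0.907% of all counts in the control libraries and 0.993% to 1.01% in the sorafenib libraries. Treg and CD4 markers were abundant, with Foxp3 at 252 to 269 CPM (counts scaled to a common library size, after TMM adjustment) in control-Treg and 268 to 278 CPM in Sora-Treg. The 5 markers of that list (Foxp3, Il2ra, Ikzf2, Ctla4 and the member Cd4) summed to 3375 to 3432 CPM in control-Treg and 5946 to 6094 CPM in Sora-Treg, as Il2ra rose from 1934 ± 32.1 to 3795 ± 54.1 CPM and Ctla4 from 383 ± 12.4 to 1108 ± 28.4 CPM (log2 fold changes 0.97 and 1.53). Ikzf2 was not called. The part of these changes in the receptor results was not tested. Markers of natural killer cells and red cells did not exceed 4 counts in any library. The 5 myeloid markers (Lyz2, Csf1r, Itgam, Adgre1 and Cd68) summed to 91.0, 90.6 and 24.2 CPM in controls 1 to 3 and to 21.9, 41.6 and 20.3 CPM in the sorafenib libraries, and 4 of the 5 were called lower in Sora-Treg. The 4 B cell markers summed to 1.53 to 2.39 CPM in control-Treg and 0.251 to 0.365 CPM in Sora-Treg, and Cd8a and Cd8b1 together to 12.6 to 15.1 CPM over all libraries. Some members, such as Ptprc, Ptpn6 and Lcp2, are also used by myeloid and B cells. For the myeloid difference, the log2 fold change of every member was also computed without controls 1 and 2. Control 3, which that fit keeps, held 1.53 CPM of B cell markers, so the fit does not address the B cell difference.

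The 250 bases before the start site are printed for the 3 CD3 chains, which moved most among the receptor genes and lie side by side on chromosome 9, and for Lcp2, the member with the largest decrease. The sequences are RefSeq's, in build GRCm38.p6, read 5′ to 3′ on each gene's own strand, with capitals marking every match to GGAAA, the core letters bound by NFAT, or to its complement TTTCC. The windows are chr9:45009612-45009861 on the minus strand for Cd3e, chr9:44981536-44981785 on the plus strand for Cd3d, chr9:44980432-44980681 on the minus strand for Cd3g and chr11:34046678-34046927 on the plus strand for Lcp2. Cd3g and Cd3d are transcribed away from each other from starts 1355 bases apart. The bases just after RefSeq's start, which are not printed, were found near the start of a GENCODE transcript for Cd3d, Cd3g and Lcp2. They were not found there for Cd3e.
Cd3e: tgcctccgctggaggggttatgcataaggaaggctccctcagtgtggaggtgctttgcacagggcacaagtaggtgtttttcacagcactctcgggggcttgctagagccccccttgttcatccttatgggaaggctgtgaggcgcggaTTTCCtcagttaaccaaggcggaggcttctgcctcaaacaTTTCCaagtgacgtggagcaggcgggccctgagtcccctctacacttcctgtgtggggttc
Cd3d: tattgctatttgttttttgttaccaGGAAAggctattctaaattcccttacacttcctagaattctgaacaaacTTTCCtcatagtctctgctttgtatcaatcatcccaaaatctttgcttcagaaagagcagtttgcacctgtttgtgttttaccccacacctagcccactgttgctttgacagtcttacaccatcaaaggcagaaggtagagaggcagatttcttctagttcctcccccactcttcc
Cd3g: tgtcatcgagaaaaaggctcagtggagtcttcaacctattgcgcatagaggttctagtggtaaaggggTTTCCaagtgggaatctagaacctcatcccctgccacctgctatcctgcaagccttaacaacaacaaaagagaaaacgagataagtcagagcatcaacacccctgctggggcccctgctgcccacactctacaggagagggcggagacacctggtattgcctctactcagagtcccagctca
Lcp2: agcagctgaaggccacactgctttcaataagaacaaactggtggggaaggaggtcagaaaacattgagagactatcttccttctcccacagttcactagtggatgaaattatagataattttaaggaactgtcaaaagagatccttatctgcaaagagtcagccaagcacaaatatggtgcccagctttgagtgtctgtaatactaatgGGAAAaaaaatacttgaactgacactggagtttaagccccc
The NFAT letters stood 2 times in the Cd3e window, 2 times in that of Cd3d, and 1 time each in those of Cd3g and Lcp2. Such a short word is common: 55.6% of the 32851 windows of all genes held it on either strand, against 66.7% of the 48 windows found for 32 of the 37 members. The FOXO word GTAAACA stood in 6.25% of the member windows, those of Grap2, Nfatc2 and Nfatc3, and in 3.17% of all windows. The E box CAGNTG stood in 47.9% of the member windows and 44.8% of all. These matches describe letters only.

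By edgeR's quasi-likelihood test with Benjamini-Hochberg adjustment over all 13463 genes, 33 of the 37 members (89.2%) differed between the groups at an adjusted p under 0.05, against 59.6% of all tested genes. Of these, 23 were higher in Sora-Treg (62.2%, against 29.7% of all genes) and 10 were lower (27%, against 29.9%). The members are abundant transcripts, with a median mean level of 230 CPM against 23.1 CPM for the median tested gene, and among the 7972 genes at least as abundant as the least abundant member 69.4% were called. Most of the differences were small, and 10 members (27%) were called with a log2 fold change of at least 0.5 in size. The shares were 25.2% of all genes and 18.2% of those 7972 genes. That set starts at 14.6 CPM, so it is not matched to the members in level. Only Cd3g, Malt1 and Cblb passed the study's 2-fold limit upward, with 6.3% of all genes doing so, and no member passed it downward, with 4.97% of all genes doing so. The library values of the groups did not overlap for 34 members (91.9%, against 63.7% of all genes). The median log2 fold change was 0.14 over the members and -0.00352 over all tested genes, while the median size of the change was 0.29 and 0.28.

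**Figure D1:**
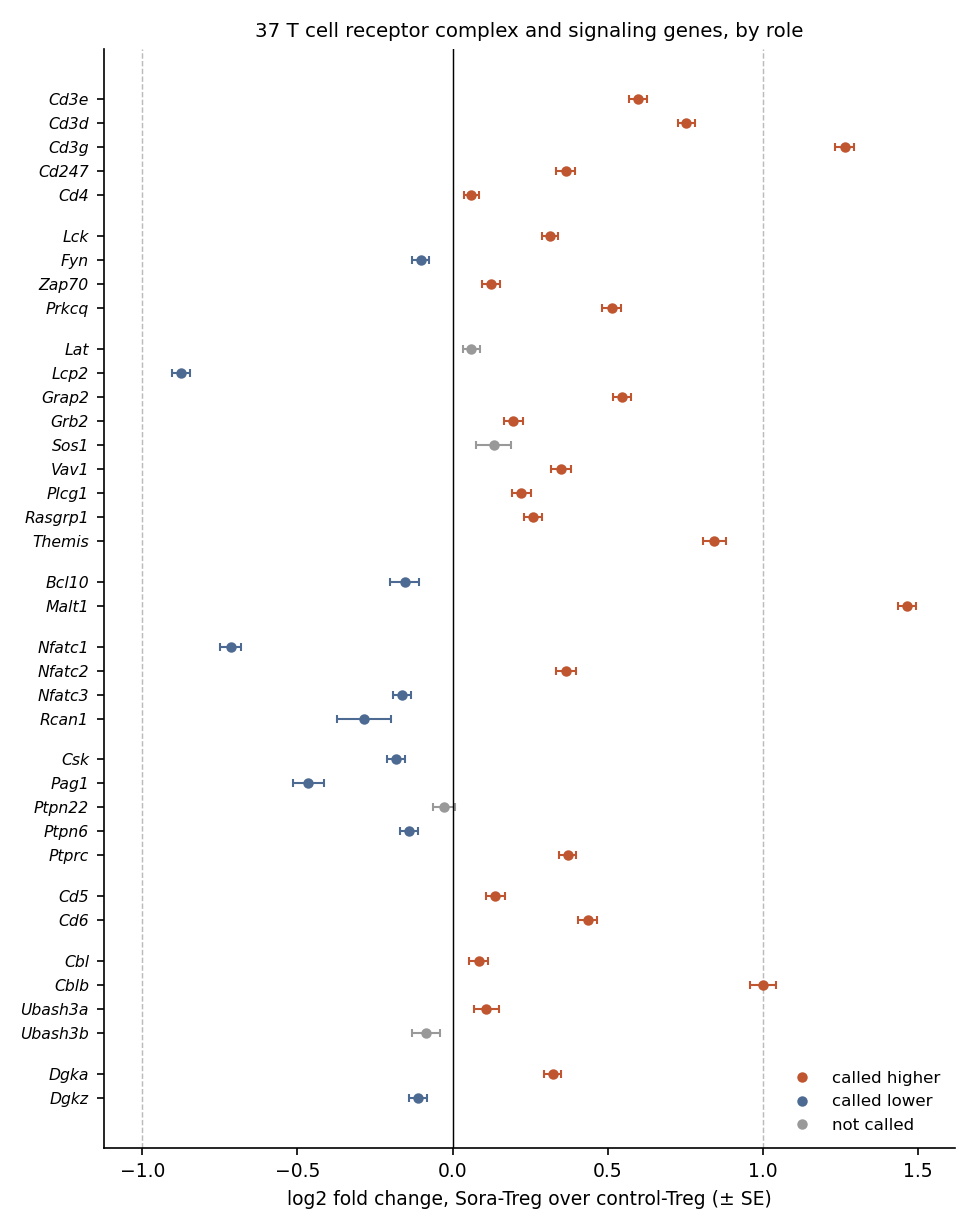
The log2 fold change of Sora-Treg over control-Treg (horizontal axis, bars are ± SE of the edgeR fit, 3 libraries a group) is plotted for all 37 genes, set apart by role from the receptor chains at the top to the diacylglycerol kinases at the bottom, with dashed lines at the 2-fold limit. All 5 receptor and coreceptor genes lie to the right of 0, and Lcp2 (-0.87) and Nfatc1 (-0.72) lie farthest to the left.

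The direction of the smaller differences depended on how libraries were scaled. When libraries were scaled by their totals alone, all genes together shifted by -0.12 (log2, at the median), and 18 members were called higher and 12 lower. Over all genes that scaling gave 2862 higher and 5614 lower, or 33.8% of calls higher, against 3994 higher and 4028 lower, or 49.8%, with TMM. Cd4, Lat, Cbl and Ubash3a changed sign under it, and 20 of the 37 members, among them Lck (0.31 to 0.20), Plcg1 (0.22 to 0.11), Grb2 (0.20 to 0.08) and Fyn (-0.10 to -0.22), moved by more than 1.5 times or changed sign. Without controls 1 and 2, the libraries with most myeloid marker counts, the median log2 fold change was 0.125 over the members. Over all genes tested in that fit it was 0.00779. That fit has 1 control library left, which is assumed to vary like the sorafenib libraries.

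The receptor chains rose together but unequally. All 5 genes of the receptor and coreceptor group were called higher in Sora-Treg, against 29.7% of all tested genes. The call of Cd4 depended on scaling and on single libraries, as given below. The summed CD3 chains (Cd3e, Cd3d, Cd3g and Cd247) went from 717 to 726 CPM in the control libraries to 1201 to 1228 CPM in the sorafenib libraries. In bulk RNA a higher share of cells carrying a transcript and more transcript per cell cannot be told apart.

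Cd3g, the CD3γ chain, pairs with CD3ε and holds a motif used in receptor internalization. It measured 144, 138 and 137 CPM in the control libraries and 333, 332 and 340 CPM in the sorafenib libraries. Every sorafenib library was above every control by far more than the spread within either group. The fold change was 2.40, or 1.26 ± 0.03 on the log2 scale (SE, n = 3 per group), with an edgeR adjusted p of 1.02e-19. It was the largest increase among the receptor genes, and it was 1.29 without controls 1 and 2.

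Cd3d, the CD3δ chain, measured 193, 201 and 198 CPM in control-Treg and 331, 332 and 333 CPM in Sora-Treg. The sorafenib values were nearly identical and all above the controls, at a log2 fold change of 0.75 ± 0.03 (edgeR adjusted p = 2.94e-16). Cd3e, the CD3ε chain shared by both CD3 dimers and the target of the stimulating antibody, measured 230, 235 and 225 CPM in control-Treg and 355, 338 and 352 CPM in Sora-Treg. The groups again stood apart, with a log2 fold change of 0.60 ± 0.03 (edgeR adjusted p = 4.58e-14).

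Cd247 encodes the zeta chain, which carries most of the receptor's tyrosine motifs. It measured 158, 152 and 157 CPM in the control libraries and 200, 199 and 202 CPM in the sorafenib libraries. The increase was the smallest of the CD3 chains, 0.36 ± 0.03 on the log2 scale (edgeR adjusted p = 5.68e-10), without overlap of the groups. In the GENCODE annotation Cd247 overlaps Pou2f1 on the opposite strand, which had at most 1556 counts where Cd247 had at least 5001, and whether strand was used in counting is not stated.

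Cd4, the coreceptor that brings Lck to the receptor, measured 678, 682 and 678 CPM in control-Treg and 713, 689 and 724 CPM in Sora-Treg. The values did not overlap but lay close, at 0.06 ± 0.03 on the log2 scale (edgeR adjusted p = 0.0416). This call was lost when control 1, control 3, sorafenib 1 or sorafenib 3 alone was left out (edgeR adjusted p = 0.0819, 0.0841, 0.0686 and 0.18), and the sign turned to -0.05 when libraries were scaled by their totals.

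**Figure D2:**
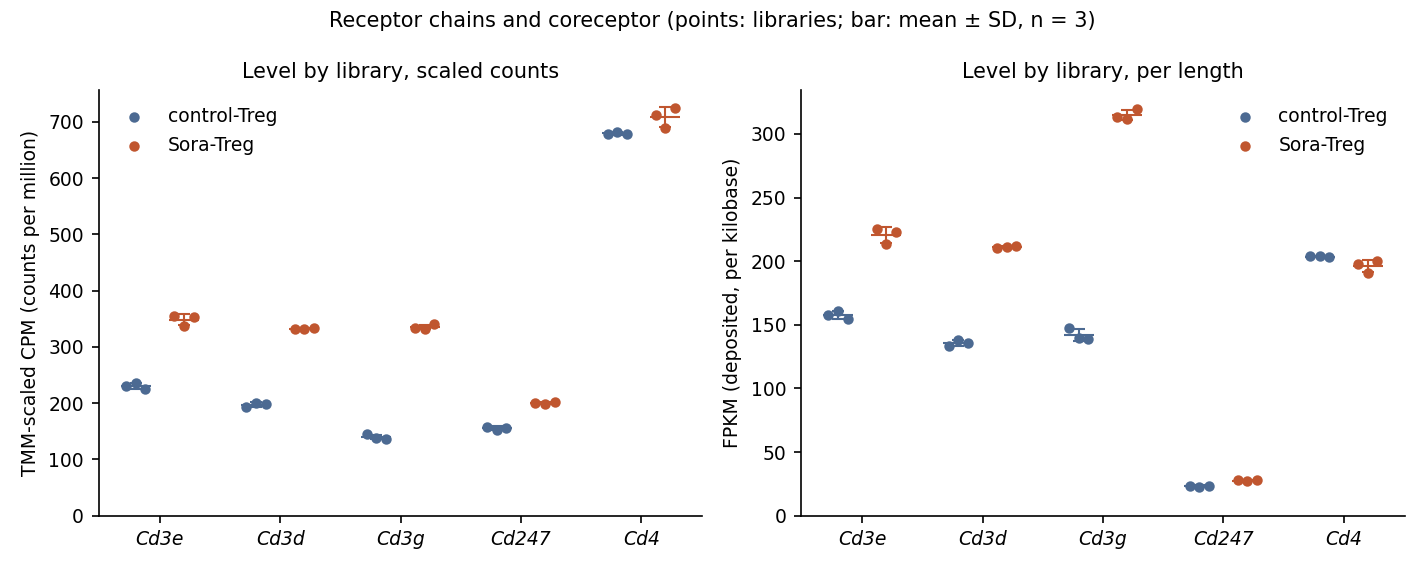
The level of the CD3 chains and Cd4 is shown in each of the 3 control and 3 sorafenib libraries (points, with bars for mean ± SD), as TMM-scaled CPM on the left and as the deposited FPKM on the right, with both axes starting at 0. In the right panel Cd3g goes from about the level of Cd3e and Cd3d to above both, and Cd247 stays far below the other chains. In the left panel, which takes no account of length, the mean of Cd247 lies above that of Cd3g in control-Treg (156 against 140 CPM). It lies below that of Cd3g in Sora-Treg (200 against 335 CPM).

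Levels of the chains were compared as FPKM, the deposited value per kilobase of gene, which rests on the length used for each gene: 1517 bases for Cd3e, 1512 for Cd3d, 1023 for Cd3g and 6969 for Cd247, as worked out from the counts and FPKM. In control-Treg, Cd3e stood at 158 ± 3.25 FPKM (SD, n = 3), Cd3g at 142 ± 4.68 and Cd3d at 136 ± 2.41, while Cd247 stood at 23.2 ± 0.497. In Sora-Treg, Cd3g led with 315 ± 4.06 FPKM, followed by Cd3e at 221 ± 6.22, Cd3d at 211 ± 0.533 and Cd247 at 27.6 ± 0.209. On this scale the order of Cd3g and Cd3e was exchanged, whereas in CPM, which takes no account of length, Cd3g was below Cd3e in both groups. The FPKM ratio of Cd3g to Cd3e within a library, which no scaling can change, was 0.932, 0.867 and 0.9 in the controls and 1.39, 1.46 and 1.43 in the sorafenib libraries. The ratio of Cd3g to Cd3d was 1.05 ± 0.0525 in control-Treg and 1.49 ± 0.0159 in Sora-Treg. The ratio of Cd247 to Cd3e moved the other way, from 0.147 ± 0.00553 to 0.125 ± 0.00281. These chain ratios were formed after the values were seen and were not tested.

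The kinases moved in different directions. Lck, the Src-family kinase that phosphorylates the CD3 and zeta chains, was higher in Sora-Treg at 527 ± 10.3 CPM against 424 ± 5.6 CPM (SD, n = 3 each), a log2 fold change of 0.31 ± 0.03. Fyn, the other Src-family kinase of the receptor, was lower at 275 ± 6.42 against 296 ± 4.64 CPM, a log2 fold change of -0.10 ± 0.03 (edgeR adjusted p = 0.00352). The ratio of Fyn to Lck is considered with the other pairs below. Zap70, which docks on the phosphorylated chains, rose by 0.12 ± 0.03 (edgeR adjusted p = 0.0012). That call was lost when libraries were scaled by their totals, where the difference was 0.00806.

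Prkcq encodes protein kinase C-θ, which links the receptor to NF-κB. It measured 162, 170 and 169 CPM in the control libraries and 235, 239 and 241 CPM in the sorafenib libraries. The groups were well separated, with a log2 fold change of 0.51 ± 0.03 (edgeR adjusted p = 1.41e-12).

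Among the 9 adaptors and effectors, 6 were called higher (66.7%), 1 lower (11.1%), and 2 were not called. Of all tested genes, 29.7% were called higher and 29.9% lower. The gene that fell was Lcp2, which encodes SLP-76, the scaffold that joins phospholipase C-γ1 and VAV1 to the LAT complex. Lcp2 measured 291, 293 and 302 CPM in the control libraries and 159, 164 and 160 CPM in the sorafenib libraries. The sorafenib values were little more than 0.5 of the control values in every library, at a fold of 0.545 and a log2 fold change of -0.87 ± 0.03 (edgeR adjusted p = 5.06e-17). It was the largest decrease among the 37 genes, and it was -0.91 without controls 1 and 2.

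Grap2 encodes GADS, the small adaptor that ties SLP-76 to LAT, and it moved opposite to Lcp2. It measured 227, 235 and 236 CPM in control-Treg and 334, 334 and 351 CPM in Sora-Treg. The log2 fold change was 0.55 ± 0.03 (edgeR adjusted p = 3e-13), with no overlap. Lat itself, the membrane scaffold, was not called (0.06 ± 0.03, edgeR adjusted p = 0.0625). In these libraries the LAT, GADS and SLP-76 transcripts were therefore not called, higher and lower in turn.

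Themis encodes a T cell protein that binds GRB2 and the phosphatase SHP-1 and is known for its part in thymic selection. It measured 174, 181 and 188 CPM in the control libraries and 309, 343 and 321 CPM in the sorafenib libraries. All sorafenib values exceeded all controls, with a log2 fold change of 0.84 ± 0.04 (edgeR adjusted p = 4.47e-15). Its binding partner Grb2 rose by 0.20 ± 0.03, and Sos1, the Ras exchange factor that GRB2 carries, was not called (0.13 ± 0.06, edgeR adjusted p = 0.0507) and had overlapping groups. Sos1 was called without control 3 (0.20, edgeR adjusted p = 0.00449) or without sorafenib 1 (0.15, adjusted p = 0.0372).

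The remaining effectors were modestly higher. Vav1, an exchange factor for Rac, rose by 0.35 ± 0.03 on the log2 scale, from 176 ± 4.9 to 224 ± 0.731 CPM. Rasgrp1, the diacylglycerol-activated Ras exchange factor, rose by 0.26 ± 0.03, and Plcg1, which makes diacylglycerol and inositol trisphosphate, by 0.22 ± 0.03. All 3 kept their calls without controls 1 and 2, at 0.38, 0.24 and 0.26.

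The relay to NF-κB held the largest change among the 37 genes. Malt1, the paracaspase that acts with BCL10 below protein kinase C-θ, measured 180, 178 and 179 CPM in the control libraries and 474, 508 and 499 CPM in the sorafenib libraries. Each sorafenib library held more than 2 times the level of any control. The fold change was 2.76, or 1.46 ± 0.03 on the log2 scale (edgeR adjusted p = 5.11e-21), and 1.46 without controls 1 and 2. Its partner Bcl10 went the other way by a small amount, from 59.8 ± 2.77 to 53.7 ± 2.18 CPM (log2 fold change -0.15 ± 0.05, edgeR adjusted p = 0.00723). That call was lost without control 2 (-0.12, adjusted p = 0.0632).

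**Figure D3:**
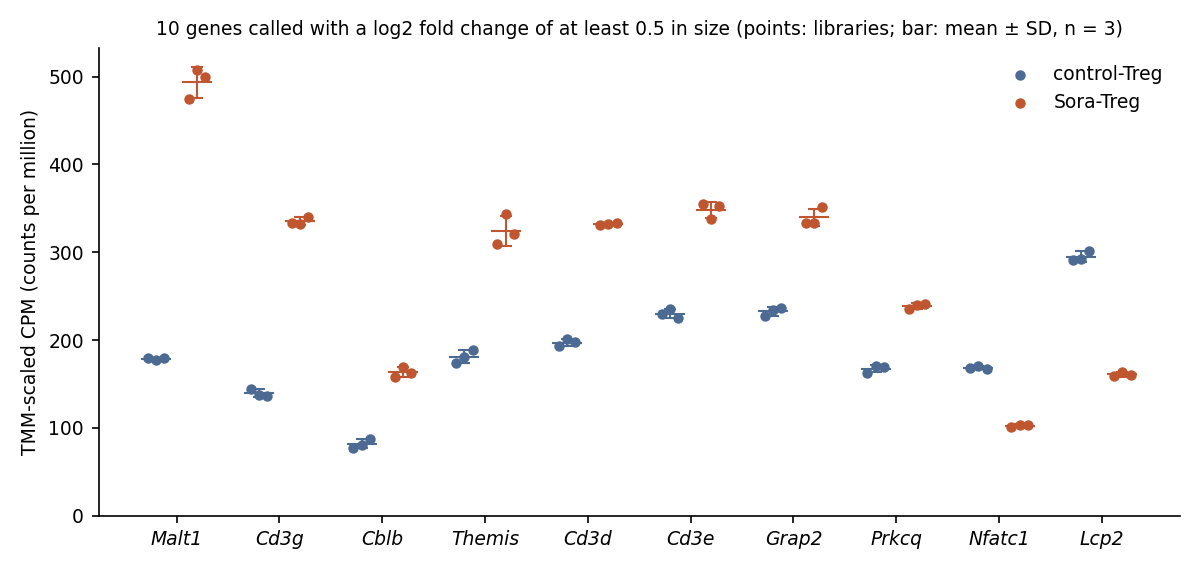
The 10 members called with a log2 fold change of at least 0.5 in size are ordered from the largest increase to the largest decrease, with the TMM-scaled CPM of every library as points and the mean ± SD of each group of 3 as bars. Malt1 rises to 474 to 508 CPM, and Lcp2 and Nfatc1 are the only 2 genes whose control points lie above their sorafenib points.

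The NFAT factors, which calcineurin dephosphorylates when calcium rises, were split. Nfatc1, whose transcription is itself raised by NFAT in activated T cells, measured 168, 171 and 167 CPM in control-Treg and 101, 104 and 103 CPM in Sora-Treg. The groups were tight and far apart, with a log2 fold change of -0.72 ± 0.03 (edgeR adjusted p = 1.15e-14). Nfatc2 was higher at 195 ± 3.03 CPM against 151 ± 3.56 CPM (log2 fold change 0.37 ± 0.03), and Nfatc3 was lower by a small amount (-0.16 ± 0.03). Rcan1, a calcineurin regulator that is itself an NFAT target, fell by 0.29 ± 0.09 on the log2 scale, from 16.1 ± 0.868 to 13.2 ± 1.21 CPM (edgeR adjusted p = 0.00653). Without controls 1 and 2 its adjusted p was 0.0474.

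Of the 5 genes that set the activity of Lck and neighboring kinases, 3 were lower (60%), 1 was higher (20%) and 1 was not called. The shares over all tested genes were 29.9% lower and 29.7% higher. Csk, the kinase that phosphorylates the inhibitory tyrosine of Lck, went from 240 ± 4.53 to 212 ± 4.18 CPM (log2 fold change -0.18 ± 0.03). Pag1, the membrane adaptor that holds CSK near Lck, went from 47.4 ± 1.08 to 34.3 ± 1.24 CPM (-0.47 ± 0.05, edgeR adjusted p = 3.38e-08). Csk and Pag1 were thus both lower, and Ptpn22, a phosphatase that binds CSK, was not called (-0.03 ± 0.03, edgeR adjusted p = 0.518) but was called lower when libraries were scaled by their totals (-0.14, adjusted p = 0.00102).

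Ptprc, which encodes CD45, the phosphatase that removes the inhibitory phosphate from Lck, rose from 1011 ± 10.7 to 1308 ± 58.9 CPM (log2 fold change 0.37 ± 0.03, edgeR adjusted p = 6.76e-11), and by 0.36 without controls 1 and 2. Ptpn6, the SHP-1 phosphatase, fell by 0.14 ± 0.03, and by 0.17 without those controls. The decrease of the negative regulators Csk, Pag1 and Ptpn6 did not extend to all inhibitors, as the next groups show.

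The surface inhibitors Cd5 and Cd6, related scavenger-receptor proteins that damp receptor signals, were both called higher. Cd6 rose by 0.44 ± 0.03 on the log2 scale, from 196 ± 1.62 to 265 ± 7.96 CPM. Cd5 rose by 0.14 ± 0.03, a call that was lost without controls 1 and 2 (edgeR adjusted p = 0.0869) and when libraries were scaled by their totals.

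Cblb encodes the ubiquitin ligase CBL-B, which limits T cell activation and raises the need for CD28. It measured 77.2, 80.9 and 87.4 CPM in the control libraries and 158, 170 and 163 CPM in the sorafenib libraries. The values did not overlap, and the log2 fold change was 1.001 ± 0.04, just over the 2-fold limit (edgeR adjusted p = 2.18e-15). It fell under that limit, still called, without control 1 (0.963), control 2 (0.996) or sorafenib 2 (0.976), and was 0.91 without controls 1 and 2.

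Its relative Cbl was called at 0.08 ± 0.03 with overlapping groups (edgeR adjusted p = 0.0252), and that call was lost without control 1, control 2 or sorafenib 3 (adjusted p = 0.0796, 0.0842 and 0.154). Ubash3a and Ubash3b encode the STS proteins, which bind CBL and restrain ZAP70. Ubash3a was called at 0.11 ± 0.04 (edgeR adjusted p = 0.0243), a call lost without control 2, control 3 or sorafenib 3 (adjusted p = 0.141, 0.0567 and 0.0718). Ubash3b, at -0.09 ± 0.05, was not called (edgeR adjusted p = 0.117), and it was called lower when libraries were scaled by their totals (-0.20, adjusted p = 0.000584). Of this group only Cblb was called under every alternative tried.

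The diacylglycerol kinases end the RasGRP1 and protein kinase C-θ signal by consuming diacylglycerol. Dgka rose from 439 ± 11.7 to 549 ± 5.24 CPM (log2 fold change 0.32 ± 0.03, edgeR adjusted p = 4.28e-10). Dgkz was lower, 275 ± 6.51 against 297 ± 3.91 CPM (-0.11 ± 0.03, edgeR adjusted p = 0.00185), a call that was lost without controls 1 and 2 (adjusted p = 0.0973).

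The ratio of counts within a library, which does not depend on library scaling, was taken for 6 pairs of related genes. The pairs were chosen with earlier results of these data known, so their ratios describe members already seen above and add no independent evidence. The log2 ratio of Nfatc1 to Nfatc2 was 0.16 ± 0.05 (SD, n = 3) in control-Treg and -0.92 ± 0.04 in Sora-Treg, a change of -1.08. Per length, as FPKM, the ratio went from 1.28 ± 0.0406 to 0.603 ± 0.0164. Cblb to Cbl changed by 0.92, from -1.89 ± 0.06 to -0.97 ± 0.05. Dgka to Dgkz changed by 0.43, from 0.57 ± 0.06 to 1.001 ± 0.04.

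The Src-family pair also moved: Fyn to Lck changed by -0.42, from -0.52 ± 0.02 to -0.94 ± 0.03. Cd6 to Cd5 changed by 0.30, from -0.22 ± 0.02 to 0.08 ± 0.01, and Ubash3b to Ubash3a by -0.19, from -0.65 ± 0.13 to -0.84 ± 0.01. The 3 sorafenib libraries lay on the same side of all 3 controls in each of the 6 pairs. Taken singly, 63.7% of all tested genes and 91.9% of the members also had groups without overlap. No such share was computed for ratios of other genes. With 3 libraries against 3 the two-sided exact permutation test cannot go below p = 0.1, which every pair reached, with adjusted values of 0.1 over the 6 pairs.

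**Figure D4:**
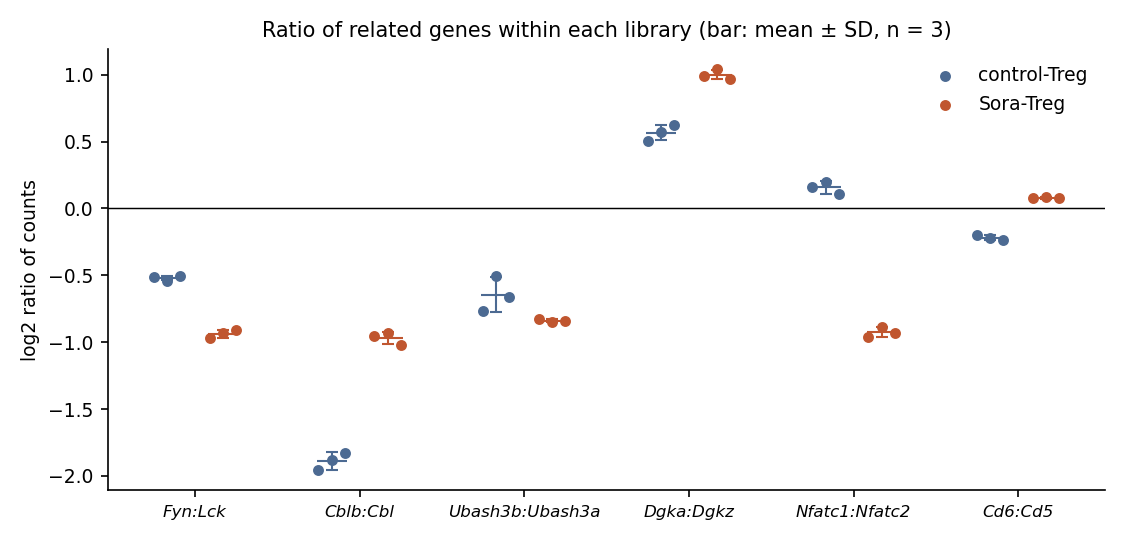
The log2 ratio of counts of 6 pairs of related genes (vertical axis, 0 meaning equal counts) is drawn for each control and sorafenib library, with bars for mean ± SD of 3. The groups do not overlap in any pair, and the widest gap is that of Nfatc1 to Nfatc2, which crosses 0. Taken singly, 63.7% of all tested genes had groups without overlap.

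The same pathway was followed through 64 further genes, of which 60 were tested. Of these, 51 were called (85%), 31 higher and 20 lower, against 59.6% of all tested genes called, 29.7% higher and 29.9% lower. Their median log2 fold change was 0.14. When libraries were scaled by their totals, 24 were higher and 22 lower, against 2862 higher and 5614 lower of all 13463 tested genes. Past the 2-fold limit were 4 of the 60 genes upward and 2 downward, with 6.3% and 4.97% of all tested genes doing so.

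The 8 called genes with the largest changes were Trat1, Rnf128, Gab2, Tec, Vav3, Cd2, Dok2 and Rhoh. Trat1 encodes TRIM, an adaptor that associates with the receptor complex and the zeta chain, and it measured 109, 121 and 116 CPM in control-Treg and 21.2, 24.2 and 22.9 CPM in Sora-Treg. Its log2 fold change of -2.34 ± 0.05 (edgeR adjusted p = 2.4e-20) was the largest in size among the members and the 60 genes, in a direction opposite to the CD3 chains. Cd2, the adhesion receptor that assists the T cell receptor, rose from 377 ± 9.55 to 797 ± 13.5 CPM (1.08 ± 0.03).

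Tec, a tyrosine kinase of the family named after it, rose by 1.19 ± 0.05, from 25.4 ± 0.84 to 57.9 ± 0.755 CPM. Vav3 fell by 1.18 ± 0.10, from 14.9 ± 0.913 to 6.53 ± 0.888 CPM, while its relative Vav1 rose. The docking proteins Gab2 and Dok2 rose by 1.52 ± 0.08 and 0.74 ± 0.05, and Rhoh, a GTPase needed for ZAP70 function, by 0.71 ± 0.04. Rnf128, which encodes the anergy-associated ubiquitin ligase GRAIL, rose by 1.66 ± 0.26 but only from 0.973 ± 0.166 to 3.09 ± 0.87 CPM.

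**Figure D5:**
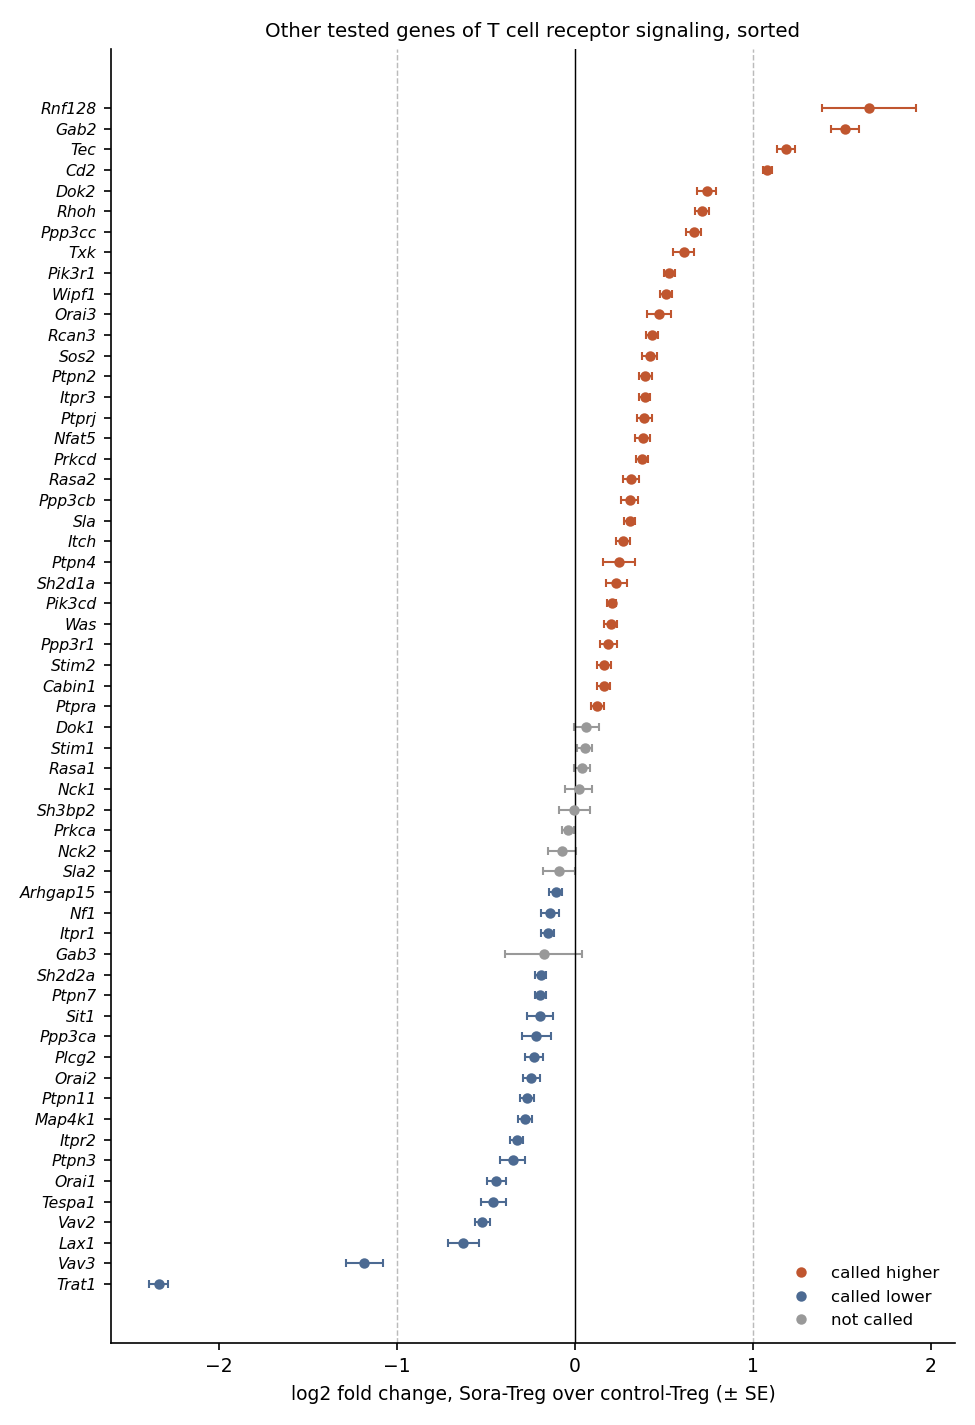
The log2 fold change of Sora-Treg over control-Treg (± SE, 3 libraries a group) is plotted for all but 2 of the 60 other tested genes of the pathway, sorted from highest to lowest, with dashed lines at the 2-fold limit. Rnf128, Gab2, Tec and Cd2 lie past the upper limit, and Vav3 and Trat1 past the lower one.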

How the data were processed

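Total RNA of sorted mouse Treg cells was sequenced in 6 libraries, 3 control and 3 sorafenib, grouped by the sample titles in GEO. The authors deposited raw read counts per gene and FPKM values per gene. The study's methods give Bowtie2, GRCm38 and FPKM by expectation maximization, while the submitters' processing notes list fastp, HISAT2, HTSeq, R 3.2.0, DESeq2 and GRCm39, so no gene coordinates were taken from the files, and promoter windows carry RefSeq's build. The deposited FPKM equal the counts divided by the library total and 1 length per gene (to within 1.64e-06 over 15431 genes), so they are no separate measurement and keep no TMM scaling. 0 columns were left unmapped.

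Counts were tested with edgeR 4.0.16 in R 4.3.3 (filterByExpr, TMM, quasi-likelihood F test, Benjamini-Hochberg over 13463 genes), checked on simulated data. A gene was called at an adjusted p under 0.05, and the 2-fold limit is the study's. SE is the log2 fold change divided by the square root of F. Ratios of pairs used counts plus 0.5 and an exact permutation test. The biological coefficient of variation was 4.29%, and libraries of a group differed by more than counting noise (chi-square per degree of freedom 3.36 to 5.91), so none was counted as a duplicate. Alternatives used other scaling, filters, DESeq2 1.42.0, limma 3.58.1 on log2(FPKM + 1), a replicate block and left-out libraries.

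Per-library values are given for the 5 receptor and coreceptor genes and for members called with a log2 fold change of at least 0.5 in size, the rest by group. Of the other pathway genes the 8 called ones with the largest change are named. Results for 2 genes of that list are not reported here singly. The members, lists and tests were chosen with earlier results of these data known. Trdc, a marker on the lists, was not analysed here. A promoter window of Cblb was not printed because it lies in an exon of a GENCODE transcript.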

Additional observations from a re-analysis of the deposited data

How the results depend on the processing

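Over 18 alternatives, 26 of the 37 members kept their direction and call, 5 (Zap70, Bcl10, Cd5, Ubash3b and Dgkz) changed only their call, and 6 changed direction under at least 1. Scaling mattered most. With library totals, limma on log2(FPKM + 1), limma on log2(FPKM + 0.1) and limma on log2(FPKM + 1) without a filter, in that order, the log2 fold changes were -0.0543, -0.0544, -0.0546 and -0.0544 for Cd4, -0.0554, -0.0548, -0.055 and -0.0548 for Lat, -0.0317, -0.0315, -0.0326 and -0.0315 for Cbl, and -0.00698, -0.00536, -0.0055 and -0.00536 for Ubash3a. All 4 scale by the library total. Sos1 was -0.00751 without controls 1 and 2, and Ptpn22 ran from -0.0534 to 0.00908 when each library was left out, the highest without control replicate 3. The cause was not tested for either. Ptpn22 was called lower with library totals (-0.143, adjusted p = 0.00102) and in the limma fits (-0.138 to -0.142, adjusted p = 0.0115 to 0.0353). DESeq2 gave 23 members higher and 10 lower, against 3826 higher and 3813 lower over all 16712 genes it tested. The members' median log2 fold change, 0.138 as reported, was 0.1001 with upper quartile scaling, 0.0225 with library totals, 0.0215, 0.0217 and 0.0215 in the 3 limma fits, and 0.123 with every gene counted at least 1 time. The median over all genes of each of these fits, in the same order, was -0.0413, -0.119, -0.1002, -0.118, -0.00705 and 0.000498. Leaving out each library in turn gave 0.137 to 0.178, with 20 to 23 members higher, 9 to 10 lower and 2 to 3 past the 2-fold limit. The third gene, Cblb, fell under that limit in several fits. Over all genes tested when each library was left out, 49.4% to 50.7% of calls were higher. Control and sorafenib libraries share replicate numbers, but same-numbered libraries did not deviate together (correlations -0.0438, 0.0591 and 0.0299 over 13463 genes). The numbers were therefore treated as names only. With 3 libraries a group, these correlations cannot exclude a shared mouse or culture, which the sources do not give. A fit with the replicate block gave 24 members higher, 10 lower, 3 past the 2-fold limit and a median of 0.137. Over all genes that fit called 4057 higher and 4064 lower. It also called Sos1 (adjusted p = 0.0266) and changed no other call of a member. Depth limits the low genes most, with an SE of 0.09 for Rcan1 against 0.03 for Cd3e.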
